A study of Sus scrofa with 18 samples.

Results

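The neuromuscular junction is the synapse at which a motor nerve releases acetylcholine onto a muscle fibre. Its genes were followed here in pig muscle under a neuromuscular blocker, by every probe set whose pig symbol or gene name in the array annotation was one of 10 named genes. The 10 genes are CHRNA1, CHRNB1, CHRND, CHRNE and CHRNG (subunits of the muscle acetylcholine receptor), MUSK, RAPSN and DOK7 (which gather the receptors under the nerve ending), ACHE (acetylcholinesterase, which breaks acetylcholine down) and RUNX1 (a transcription factor). Of these, 3 genes had a probe set of that name, in 4 probe sets out of 23999 tested. CHRNA1 and MUSK had 1 each (Ssc.19688.1.S1_at and Ssc.7788.1.A1_at), and RUNX1 had a pair (Ssc.30055.1.A1_at and Ssc.19080.1.A1_at). The other 7 genes were matched by no probe set and are not analysed here, so the results cover 1 receptor subunit, 1 organiser of the synapse and 1 transcription factor.

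Values came from 18 Affymetrix porcine arrays, 1 for each muscle sample, deposited on the log2 scale after robust multi-array averaging (RMA). The groups were masseter (a chewing muscle) at day 5 and at day 1, with 5 arrays each, and biceps femoris (a thigh muscle) at day 5 and at day 1, with 4 arrays each. The samples came from 5 female piglets averaging 26.9 kg, which were anaesthetised, ventilated and immobile for 5 days in a model of acute quadriplegic myopathy, a muscle weakness of intensive care. The protocol gave pancuronium, which blocks the muscle acetylcholine receptor, at 0.1 mg/kg/h, the corticosteroid betamethasone in doses of 0.1 mg/kg, and Escherichia coli endotoxin at 36 µg/kg/h for 1 h. All groups share the anaesthesia and ventilation protocol. The day 1 masseter arrays are labelled untreated. The source and treatment labels of the day 1 biceps femoris arrays call them treated, whereas their titles and the series text make them controls, and the titles were followed. A breed label names wild boar and the protocol domestic piglets. No array came from an animal kept for 5 days without the drugs and endotoxin, so time, immobility, blockade, corticosteroid and endotoxin cannot be told apart. Masseter arrays of 1 number came from 1 animal, and the biceps femoris arrays came from 4 of the same animals, which their labels do not name.

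The receptor is a ring of subunits, and CHRNA1 encodes the alpha subunit, which binds acetylcholine. Agrin from the nerve acts through LRP4 on the receptor kinase MUSK, and MUSK signalling through DOK7 and RAPSN clusters the receptors. In mouse and rat muscle that has lost its nerve, the genes of the receptor and of MUSK are known to become more active along the whole fibre. RUNX1 is also known from mouse and rat as a gene induced by denervation. Whole muscle was measured here, so fewer cells of a type and less RNA per cell cannot be told apart.

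Day 5 was tested against day 1 by limma (moderated linear models, two-sided). These fits took the arrays as independent, although both days share animals, and the pairing by animal entered only as an alternative. P-values were adjusted after Benjamini and Hochberg across the 23999 probe sets, and a gene was called where its adjusted p lay under 0.05. In masseter 1 of the 4 probe sets was called (RUNX1, higher at day 5), where 13.8% of all probe sets were called (7.31% higher and 6.51% lower). In biceps femoris 1 of 4 was called (CHRNA1, lower at day 5), where 17.2% of all were called (9.89% higher and 7.27% lower). For the difference between the muscles 0 of 4 were called by limma, where 0.2% of all probe sets were. Without the adjustment p was under 0.05 for 1 of the 4 (RUNX1), and for 14.6% of all named genes. Technical values moved with the day in biceps femoris. A spiked-in control transcript, BioC, was brighter on 3 of the 4 biceps femoris day 1 arrays (8.87 to 9.13) than on day 1 replicate 4 (7.97) and on the day 5 arrays (7.43 to 7.78). The 28S ribosomal RNA probe set lay between 12.09 and 13.12 on its day 5 arrays and between 11.68 and 12.07 on its day 1 arrays, without overlap, and in masseter between 9.40 and 10.31 at day 5 and between 9.93 and 10.33 at day 1. In masseter the difference between the 3' and 5' probe sets of actin was 2.38 to 2.71 at day 5. At day 1 it was 2.27 to 2.46, with overlap. For GAPDH it was -0.30 to -0.10 at day 5 and -0.32 to -0.19 at day 1. The part of the 28S signal in the biceps femoris changes was not tested, nor that of these differences in the masseter changes. The muscles had been normalized apart, so levels were compared only within a muscle.

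**Figure D1:**
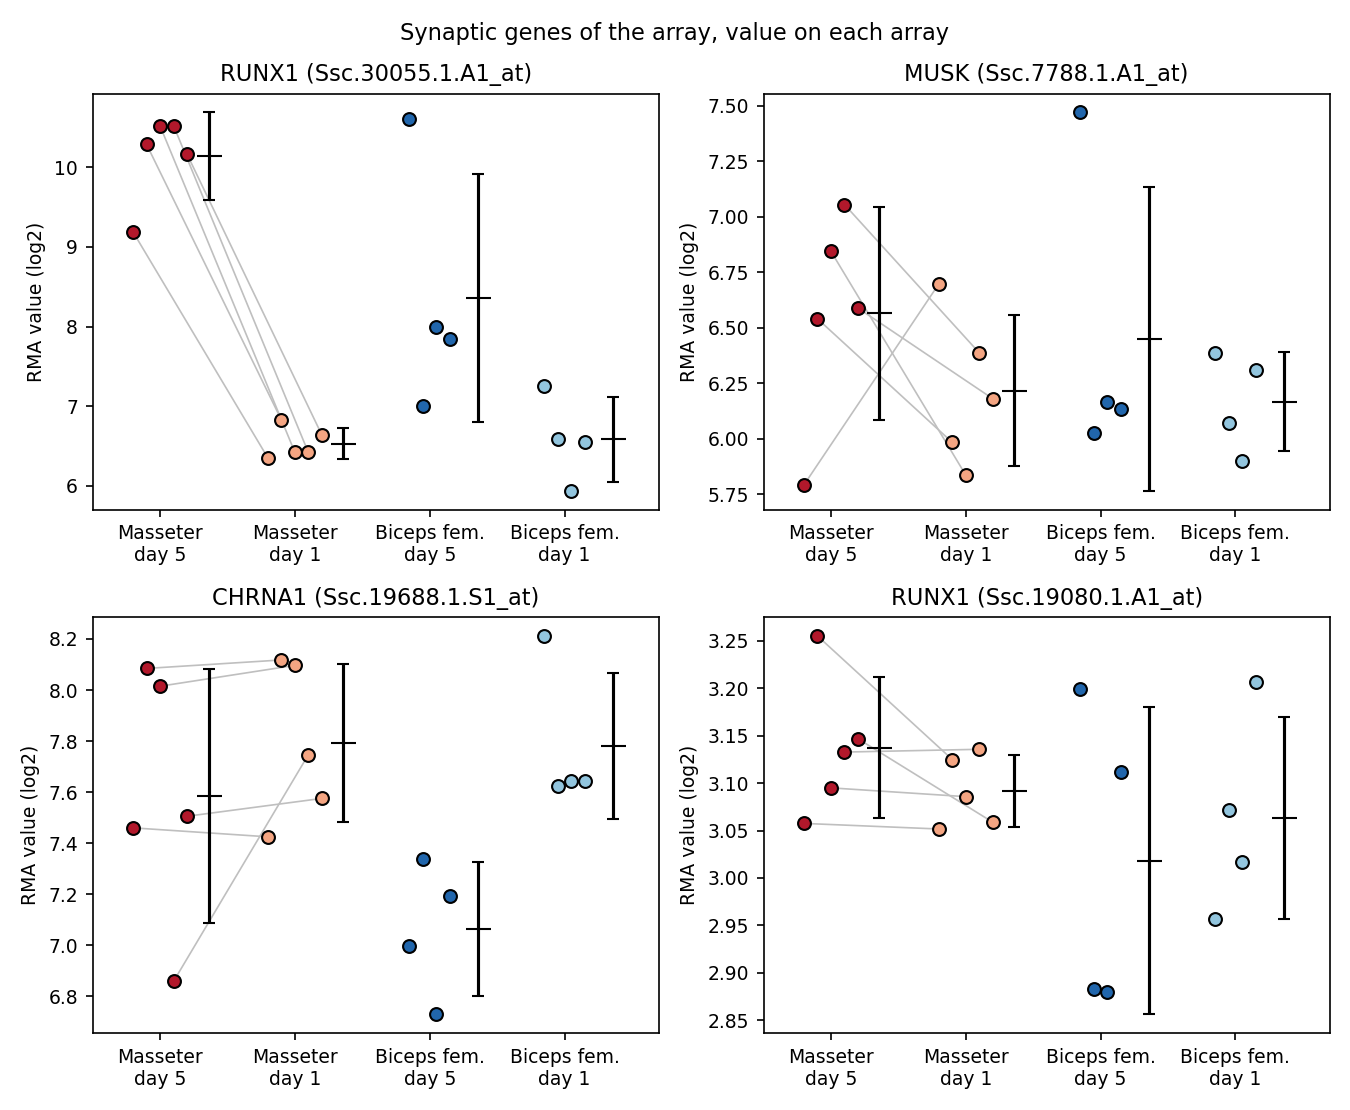
Log2 RMA value of each probe set on each array (points) at day 5 and day 1 in masseter and biceps femoris, with the group mean and SD (black). Grey lines join masseter arrays of 1 animal. For RUNX1 (Ssc.30055.1.A1_at) all masseter day 5 arrays, 9.19 and above, lie over all masseter day 1 arrays, 6.83 and below, whereas in biceps femoris the days overlap.

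CHRNA1, the acetylcholine-binding receptor subunit, fell in biceps femoris and showed no call in masseter. In biceps femoris its log2 values were 7.00, 7.34, 6.73 and 7.19 at day 5, against 8.21, 7.62, 7.64 and 7.64 at day 1. Every day 5 array lay below every day 1 array, as it did for 10.2% of all probe sets in this muscle. The means were 7.06 ± 0.26 at day 5 and 7.78 ± 0.29 at day 1 (SD, n = 4 each). The change was -0.72 (SE 0.18), which is 1.64-fold lower, with an adjusted p of 0.0256 by limma. An exact two-sided permutation test over the arrays gave p = 0.0286, the smallest that 4 against 4 allows. This test, here and below, took the arrays as independent, although both days share animals. The authors' deposited table gives a log2 change of -0.72 with an adjusted p of 0.0263 for this probe set.

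That call rests on few arrays. Without day 5 replicate 3, the lowest array, the change was -0.60 and the adjusted p 0.0627 by limma. With the bright and dim BioC arrays as a block, the change was -0.58 and the adjusted p 0.347 by limma, in a fit where day 1 replicate 4 alone joins both days. The 28S signal was higher on all 4 day 5 arrays, where CHRNA1 was lower.

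In masseter, CHRNA1 had log2 values of 7.46, 8.08, 8.01, 6.86 and 7.50 at day 5, against 7.42, 8.12, 8.10, 7.75 and 7.57 at day 1. The days overlapped almost wholly. In 4 of the 5 animals the day 5 array matched the day 1 array of the same animal to within 0.08, and animal 4 had a day 5 minus day 1 difference of -0.89. The mean change was -0.21 (SE 0.23, 95% interval -0.72 to 0.31, adjusted p = 0.599 by limma). The change in masseter minus the change in biceps femoris was 0.51 (SE 0.32, 95% interval -0.17 to 1.19, adjusted p = 0.56 by limma), so a difference between the muscles was not shown.

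The genes whose values most resembled those of CHRNA1 were DOCK11 (a guanine nucleotide exchange factor), TAGLN2 (transgelin 2, an actin-binding protein), COL1A2 (a chain of type I collagen), THBS3 (a thrombospondin) and THY1 (a surface glycoprotein of fibroblasts and other cells). The probe set of THY1 carries that name as its pig symbol and SIDT1 as its gene name, so its identity is uncertain, also as a fibroblast marker. Likeness was Pearson's r over the 18 arrays after the mean of each muscle was taken off, and it was between 0.849 for THY1 and 0.865 for DOCK11. After the mean of each group was taken off instead, a centring chosen after the data were seen, r was between 0.765 for THY1 and 0.782 for DOCK11. The arrays of a muscle share animals and normalization, so these values are a description. The 5 genes were chosen by r with CHRNA1 on these same arrays, both days included. Their falls beside CHRNA1 thus follow in part from that choice. In biceps femoris DOCK11 fell 2.02-fold, TAGLN2 4.19-fold, COL1A2 3.997-fold, THBS3 1.74-fold and THY1 4.26-fold by day 5, with adjusted p-values between 0.00408 and 0.0115 by limma. With the bright and dim BioC arrays as a block none of the 5 was called (adjusted p = 0.109 to 0.24). In masseter none of the 5 was called (adjusted p = 0.14 to 0.229 by limma), although 3 of them were called when the animal was a block, COL1A2 at an adjusted p of 0.0413, TAGLN2 at 0.0414 and THY1 at 0.0365.

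COL1A2 and THY1 belong to a list of 8 fibroblast markers, which was read beside CHRNA1. The changes of the 8 ran between -3.08 and 0.39 in biceps femoris, with a median of -1.91. In masseter they ran between -1.78 and 0.86, with a median of -1.01, where CHRNA1 changed by -0.21. In biceps femoris 7 of the 8 markers fell and 0 rose, where 9.28% of all genes fell, and the mean of the list lay between 8.85 and 10.1 on the day 5 arrays and between 10.9 and 11.6 on the day 1 arrays. MFAP5 (a microfibril protein) fell 8.44-fold, COL1A1 (a chain of type I collagen) 6.23-fold and LUM (lumican, a matrix proteoglycan) 3.51-fold, with adjusted p-values of 0.000344 to 0.00387 by limma. With the BioC block MFAP5 alone of the 8 was called lower. In masseter 1 of the 8 fell (MFAP5, 3.43-fold, adjusted p = 0.00447), 2 without day 5 replicate 1, 3 without day 5 replicate 2 and 4 with the animal as a block. The mean there lay between 9.02 and 10.9 at day 5 and between 10.3 and 11.3 at day 1. Across the 18 arrays the mean of the markers and CHRNA1 had an r of 0.826 after centring on each muscle and of 0.718 after centring on each group. That mean includes COL1A2 and THY1, which are among the genes most like CHRNA1 on these same arrays, so this r is a description. The part of the fibroblast markers in the fall of CHRNA1 was not tested.

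**Figure D2:**
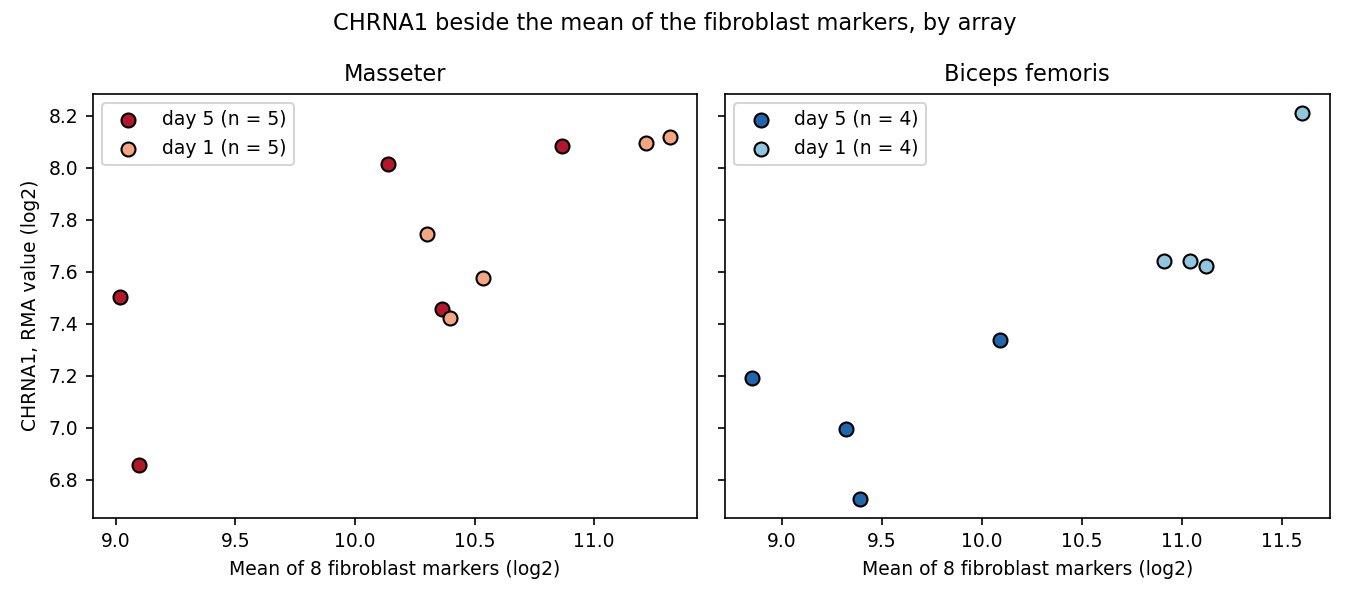
CHRNA1 log2 value (vertical axis) against the mean log2 value of 8 fibroblast markers (horizontal axis), with 1 point per array, in masseter (left) and biceps femoris (right). In biceps femoris the 4 day 5 arrays have both the lower marker means, 10.1 and below, and the lower CHRNA1 values, 7.34 and below.

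MUSK, the kinase that starts receptor clustering, was called in neither muscle. In masseter its log2 values were 5.79, 6.54, 6.84, 7.05 and 6.59 at day 5, against 6.70, 5.98, 5.84, 6.39 and 6.18 at day 1. It was higher at day 5 in 4 of 5 animals, by 0.41 to 1.01, and animal 1 went the other way, with a day 5 minus day 1 difference of -0.90. That animal had the lowest day 5 value and the highest day 1 value of the muscle. The mean change was 0.35 (SE 0.23, 95% interval -0.17 to 0.86, adjusted p = 0.36 by limma). Without day 5 replicate 1 it was 0.54, with an adjusted p of 0.0625 by limma.

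In biceps femoris MUSK had log2 values of 7.47, 6.02, 6.17 and 6.14 at day 5, against 6.39, 6.07, 5.90 and 6.31 at day 1. Replicate 1 stood alone above the other day 5 arrays, which all lay within the day 1 range. The change was 0.28 (SE 0.31, 95% interval -0.43 to 0.99, adjusted p = 0.605 by limma), and without that array it was -0.06. The masseter change minus the biceps femoris change was 0.06 (95% interval -0.79 to 0.92, adjusted p = 0.967 by limma).

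RUNX1 carried the largest change among the members. On Ssc.30055.1.A1_at the masseter log2 values were 9.19, 10.29, 10.52, 10.52 and 10.16 at day 5, against 6.35, 6.83, 6.42, 6.42 and 6.64 at day 1. A wide gap lay between the days, and every day 5 array was above every day 1 array, as for 5.58% of all probe sets in masseter. On each day 5 array the value stood between the 89th and the 95.4th percentile of the probe sets, and at day 1 between the 53.4th and the 61st. The mean was 10.14 ± 0.55 at day 5 and 6.53 ± 0.20 at day 1 (SD, n = 5 each). RUNX1 rose by 3.60 (SE 0.23), which is 12.2-fold, with an adjusted p of 5.36e-05 by limma. It rose in 5 of 5 animals, by 2.84 to 4.10. The exact two-sided permutation test, which ignores the pairing by animal, gave p = 0.00794, the smallest that 5 against 5 allows. A permutation within animals was not run. Among the 23999 probe sets RUNX1 ranked 4 by p of limma and 9 by the size of the rise in masseter.

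In biceps femoris the same probe set had log2 values of 10.60, 7.00, 7.997 and 7.84 at day 5, against 7.25, 6.58, 5.94 and 6.55 at day 1. Replicate 1 stood far above the rest of the muscle, 2 of the other day 5 arrays lay above all day 1 arrays, and replicate 2 lay within the day 1 range. The mean was 8.36 ± 1.56 at day 5 and 6.58 ± 0.54 at day 1 (SD, n = 4 each). The change was 1.78 (SE 0.70, 95% interval 0.18 to 3.37), with an adjusted p of 0.127 by limma and an exact permutation p of 0.0571. The authors' deposited table gives the same log2 change of 1.78 and an adjusted p of 0.13. When all 18 arrays shared 1 estimate of the spread, the adjusted p of this change was 0.0279 by limma, and no other alternative called it. Over the 7 settings that kept all arrays, the change was 1.39 to 1.81 (adjusted p = 0.0279 to 0.491 by limma). Without 1 array it was 1.03 to 2.23 (adjusted p = 0.0607 to 0.268 by limma).

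The difference between the muscles turned on biceps femoris day 5 replicate 1. With all arrays the masseter change minus the biceps femoris change of RUNX1 was 1.83 (SE 0.72, 95% interval 0.31 to 3.35, adjusted p = 0.299 by limma). Without that array the difference was 2.57 (SE 0.43) with an adjusted p of 0.0116, and with limma's array weights it was 2.36 with an adjusted p of 0.0289. No other alternative called the difference. Over all fits without 1 array it was 1.37 to 2.57 (adjusted p = 0.0116 to 0.473 by limma). Under the 6 other settings it was 1.80 to 2.36 (adjusted p = 0.0289 to 0.643 by limma). On biceps femoris day 5 replicate 1 MUSK and RUNX1 were both the highest of their group. It also had the highest difference between the 3' and 5' probe sets of actin among the biceps femoris arrays, 2.05, where the other day 5 arrays had 1.04 to 1.15 and the day 1 arrays 1.39 to 1.72. For GAPDH the difference between the 3' and 5' probe sets was -0.42 on replicate 1. It was -0.46 to -0.45 on the other day 5 arrays and -0.48 to -0.44 on the day 1 arrays. Replicate 1 was the lowest of the 4 day 5 arrays for 39.9% of the 10958 named genes and the highest for 27.4%. It exceeded the other day 5 arrays by over 1 log2 unit for 2.23%. The part of RNA quality in these values was not tested. In masseter the day 5 array of animal 1 was the lowest of its group for both RUNX1 and MUSK. That array was the highest of its group for 29.1% of the named genes and the lowest for 28.6%, where each of the other 4 day 5 arrays was the highest for 16.5% to 18.6% and the lowest for 16.5% to 20.2%. It was the highest for 7 of 8 macrophage and leukocyte markers and 6 of 10 muscle fibre markers. The part of that array's own quality in these changes was not tested.

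The second RUNX1 probe set, Ssc.19080.1.A1_at, lay near the bottom of every array. Its log2 values ran between 2.88 and 3.26 over all 18 arrays, at or below the 5.35th percentile of each. It showed a change of 0.05 in masseter (SE 0.07, adjusted p = 0.701) and of -0.04 in biceps femoris (SE 0.10, adjusted p = 0.829 by limma). The probe sets of RUNX1 thus disagree, with 1 at high signal that rose in masseter and 1 at the floor of the arrays.

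**Figure D3:**
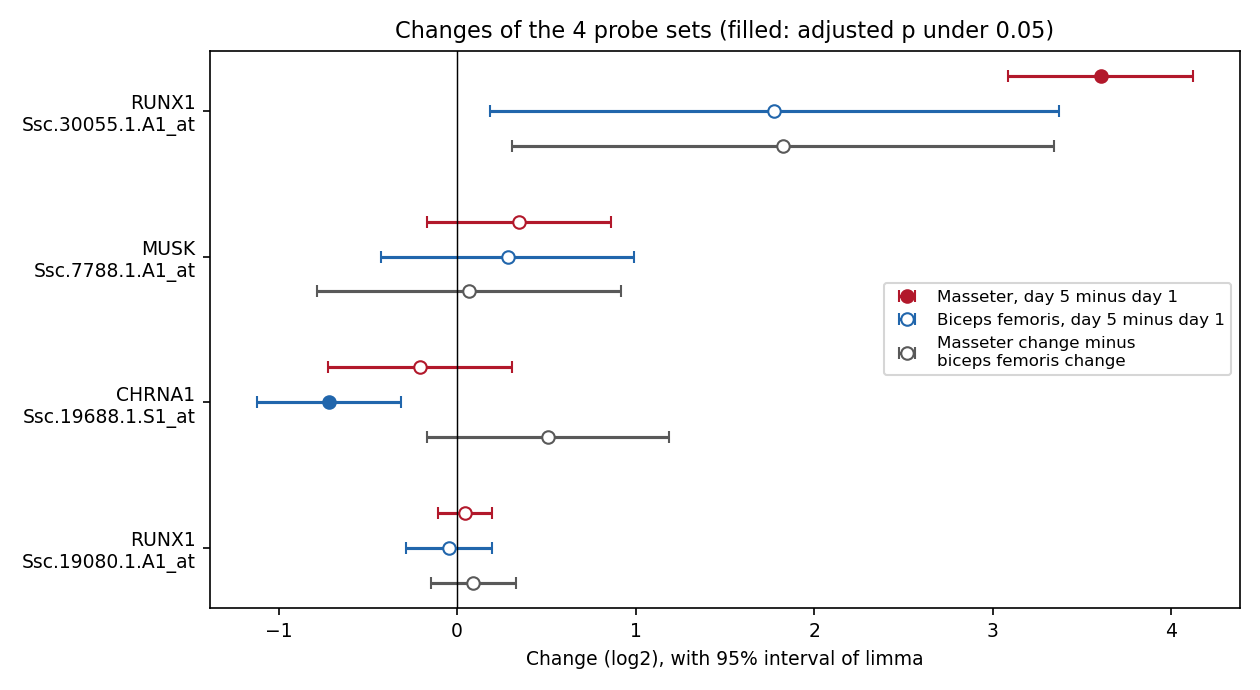
Day 5 minus day 1 change (log2) of each probe set in masseter and biceps femoris, and the masseter change minus the biceps femoris change, with 95% intervals from limma. Filled points passed an adjusted p of 0.05. RUNX1 (Ssc.30055.1.A1_at) in masseter, 3.60, and CHRNA1 in biceps femoris, -0.72, are the filled points.

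The genes most like RUNX1 over the 18 muscle-centred arrays were CBFB (core-binding factor subunit beta), WNT9B (a secreted Wnt ligand), CPA1 (a carboxypeptidase of the pancreas), AMPD3 (an AMP deaminase) and PP1201 (an older symbol, kept as the annotation gives it). CBFB had the highest r, 0.957, and PP1201 the lowest of the 5, 0.933. Without biceps femoris day 5 replicate 1, left out after the data were seen, r was 0.944 for CBFB and between 0.933 and 0.959 for the 5 genes. After centring on each of the 4 groups it was 0.89 for CBFB and 0.592 for PP1201. CBFB had log2 values of 10.01, 10.45, 10.08, 10.18 and 10.23 in masseter at day 5, against 9.02, 9.41, 8.95, 9.09 and 9.15 at day 1. In biceps femoris CBFB had 10.60, 9.39, 9.73 and 9.77 at day 5, against 9.23, 8.99, 8.87 and 8.80 at day 1. The day 5 arrays lay above the day 1 arrays in both muscles, and replicate 1 was the highest day 5 array in biceps femoris. The 5 genes were chosen by r with RUNX1 on these same arrays, with both days and replicate 1 included. Their rise and their high values on replicate 1 thus follow in part from that choice.

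The rise of CBFB was 2.09-fold in masseter, a change of 1.06 (SE 0.11, adjusted p = 0.000444), and 1.86-fold in biceps femoris, a change of 0.90 (SE 0.24, adjusted p = 0.0347 by limma). The biceps femoris call was lost in 5 of the 8 fits that left out 1 array, without day 1 replicate 2, 3 or 4 or day 5 replicate 3 or 4 (adjusted p = 0.0646 to 0.0918), and with the BioC block (0.192). Its other probe set was called in both muscles too, at 1.03 in masseter (adjusted p = 0.00467) and 1.14 in biceps femoris (0.0234). CPA1 rose 10.02-fold in masseter (adjusted p = 0.00144), and in biceps femoris it had 8.14 on day 5 replicate 1 against 5.58 to 6.07 on the other day 5 arrays (adjusted p = 0.0719, and 0.00359 without that array). WNT9B rose 1.79-fold in masseter (adjusted p = 0.00199) and was 1.46-fold higher in biceps femoris without a call (adjusted p = 0.0568 by limma, and 0.0195 to 0.0492 under 3 of the other settings). PP1201 rose 4.02-fold in masseter (adjusted p = 0.000435) and 2.14-fold in biceps femoris (0.00159 by limma, and 0.0622 with the BioC block).

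**Figure D4:**
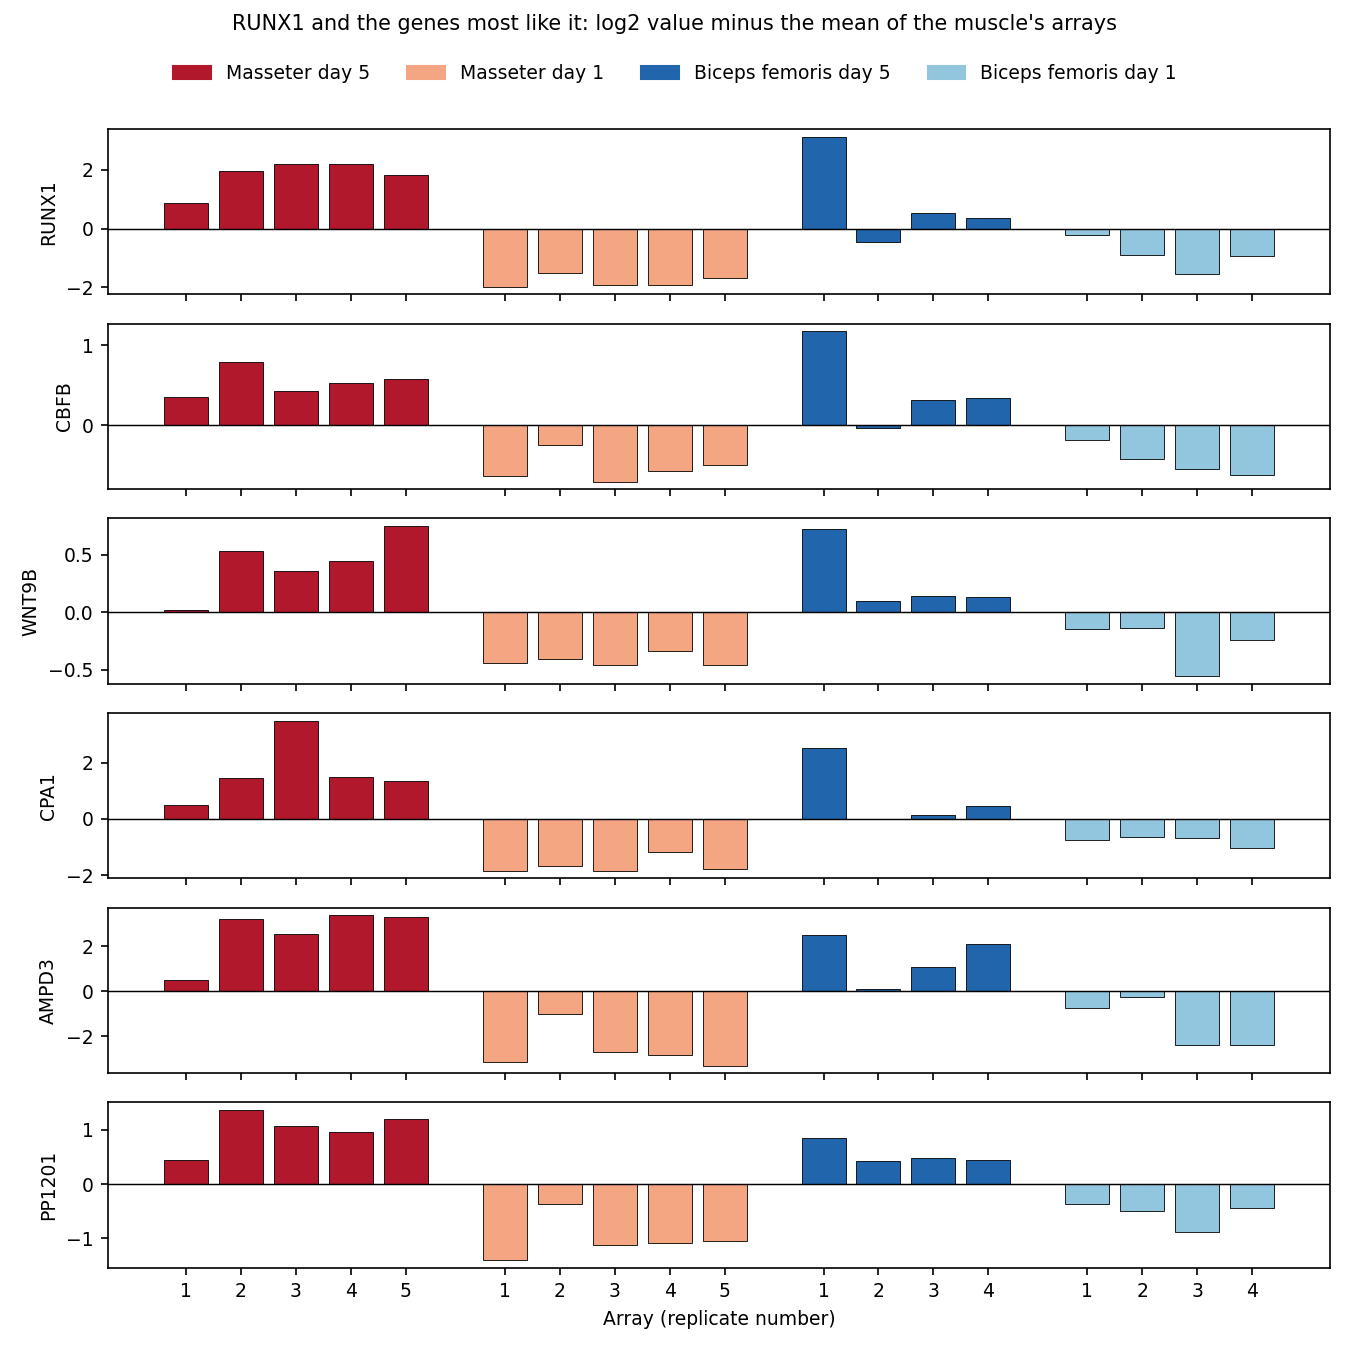
Log2 value minus the mean of the muscle's arrays for RUNX1 and the 5 genes most like it, with 1 bar per array, grouped as masseter day 5, masseter day 1, biceps femoris day 5 and biceps femoris day 1. Each panel has its own scale, and replicate 1 of biceps femoris day 5 is the tallest bar of its group in all 6 panels. The 5 genes were chosen by their likeness to RUNX1 on these same arrays, which favours such a shared pattern.

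The wider pathway was read from lists of genes, in which the brightest probe set stood for each gene. For comparison, 9.5% of all named genes rose and 8.33% fell in masseter, 13.7% rose and 9.28% fell in biceps femoris, and 0.265% differed between the muscles. The median change of all genes was -0.02 in masseter and -0.01 in biceps femoris. No gene of any list was called for the difference between the muscles, so a call in 1 muscle alone does not show a difference between them. The missing calls do not show that the muscles changed alike. Without adjustment, p for the difference was under 0.05 for 3 of 38 synapse assembly genes, 8 of 24 transcription genes and 4 of 20 denervation genes, where it was for 14.6% of all genes.

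Of 38 measured genes for synapse assembly and the synaptic basement membrane, 5 rose and 4 fell in masseter, with a median change of 0.11. With the animal as a block 1 rose and 5 fell, and 1 to 3 rose when day 1 replicate 1, 3, 4 or 5 or day 5 replicate 2, 4 or 5 was left out. Without day 5 replicate 1, 7 fell. In biceps femoris 4 rose and 7 fell, with a median change of 0.00, or 1 and 3 with the BioC block. AGRN, which encodes agrin, fell in biceps femoris, with log2 values of 6.30, 7.29, 7.18 and 7.15 at day 5 against 8.16, 8.77, 7.77 and 8.39 at day 1. The change was -1.29 (SE 0.27, 2.44-fold lower, adjusted p = 0.0126 by limma, and 0.136 with the BioC block). In masseter AGRN changed by -0.63 without a call (adjusted p = 0.0668), and was called without day 1 replicate 2, its lowest day 1 array (0.00281 by limma), and with array weights (0.0344). LRP4, the agrin receptor, was called in neither muscle, at -0.03 in masseter (adjusted p = 0.797) and -0.11 in biceps femoris (0.405). Its probe set lay near the floor, between percentiles 5.5 and 10.2 of the arrays, so this says little about LRP4. COLQ, the collagen tail that anchors acetylcholinesterase, was not measured by a named probe set.

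Both laminin chains of smallest p fell in both muscles. LAMA2 and LAMA5, other laminin alpha chains of the list named here after their values were seen, were called in neither. LAMA2 changed by 0.05 in masseter (adjusted p = 0.872) and by -0.32 in biceps femoris (0.297 by limma). LAMA5 changed by 0.30 in masseter (adjusted p = 0.318) and by -0.25 in biceps femoris (0.0868 by limma). LAMB2, a laminin beta chain concentrated at the synapse, fell 1.91-fold in masseter (adjusted p = 0.0129) and 3.04-fold in biceps femoris (0.000169 by limma), where its call held with the BioC block. LAMA4, a laminin alpha chain, fell 1.80-fold in masseter (adjusted p = 0.0222) and 2.64-fold in biceps femoris (0.00142). Its masseter call was lost without day 1 replicate 5 or day 5 replicate 4 or 5 (adjusted p = 0.0514 to 0.0553 by limma). LAMB2 and LAMA4 also belong to the basement membrane outside the synapse. In biceps femoris 7 of the 8 fibroblast markers fell beside them, the part of which was not tested. BCHE, butyrylcholinesterase, which also breaks acetylcholine down and is named here after its values were seen, fell 2.79-fold in biceps femoris (adjusted p = 0.0162) and changed by -0.80 in masseter without a call.

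UTRN, which encodes utrophin, the dystrophin relative enriched at the synapse, rose 1.60-fold in masseter (adjusted p = 0.0193) and 1.98-fold in biceps femoris (0.00695 by limma). The masseter call was lost when the animal was a block (adjusted p = 0.0578) or day 1 replicate 4 was left out (0.0507), and the biceps femoris call with the BioC block (0.135). Of the 4 other UTRN probe sets, 1 was called higher in both muscles and 3 in neither. PAK1, a kinase of receptor clustering, fell 3.30-fold in masseter (adjusted p = 0.0137), and its change of -1.04 in biceps femoris was not called (adjusted p = 0.0847, but 0.00278 without day 5 replicate 2 and 0.0442 with array weights). DVL1, a Wnt signalling protein that binds MUSK, fell 1.57-fold in masseter (adjusted p = 0.00591) and 1.49-fold in biceps femoris (0.00473). FNTA, a farnesyltransferase subunit, rose 2.18-fold in biceps femoris (adjusted p = 0.000344), while its change of 0.37 in masseter was called only without day 5 replicate 1 (0.0172). Its other probe set was called in neither muscle.

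Of 24 measured regulators of synaptic transcription, 7 rose and 0 fell in masseter, with a median change of 0.17, and 2 rose and 0 fell in biceps femoris, with a median of -0.07. In masseter 5 to 8 rose when 1 array was left out and 7 with the animal as a block, and 1 fell without day 5 replicate 1. In biceps femoris 1 rose without day 1 replicate 1, 2 or 3 or day 5 replicate 1 or 4, 1 fell without day 5 replicate 3, and 0 rose with the BioC block. ID1 and ID2, inhibitors of the myogenic helix-loop-helix factors, had the largest changes. ID2 had log2 values of 10.57, 10.79, 9.94, 10.05 and 11.36 in masseter at day 5, against 7.73, 6.89, 8.56, 7.52 and 7.70 at day 1. It rose 7.28-fold there (change 2.86, SE 0.33, adjusted p = 0.000653 by limma), while in biceps femoris its change was 0.54 (SE 0.58, adjusted p = 0.593) with overlapping days. ID1 rose 9.93-fold in masseter (adjusted p = 0.00156) and changed by 1.25 in biceps femoris (adjusted p = 0.138 with all arrays, 0.048 without day 5 replicate 2). The masseter change minus the biceps femoris change was 2.32 for ID2 (adjusted p = 0.168) and 2.06 for ID1 (adjusted p = 0.243 by limma). The 2 other ID2 probe sets were called in neither muscle.

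HDAC4, a histone deacetylase that acts on synaptic genes after denervation in mouse, rose 1.83-fold in masseter (adjusted p = 0.00946) and 1.32-fold in biceps femoris (0.0275 by limma). The biceps femoris call was lost without day 1 replicate 1, 2 or 3 or day 5 replicate 1 or 4 (adjusted p = 0.0523 to 0.0725), and under 5 other settings (0.0574 to 0.452, the highest with the BioC block). Another HDAC4 probe set was called higher in both muscles, at 1.56 in masseter and 1.31 in biceps femoris, and the remaining 3 in neither. SP1, a general transcription factor, rose 2.49-fold in masseter (adjusted p = 0.00685) and 2.46-fold in biceps femoris (0.0103, and 0.206 with the BioC block), while its 4 other probe sets were called in neither. MYOG, the myogenic factor that drives receptor genes in denervated mouse muscle, was called in neither muscle, at -0.09 in masseter (adjusted p = 0.573) and -0.20 in biceps femoris (0.179). Its signal was low, between percentiles 22.8 and 33.0 of the arrays. ERBB2 and ERBB3, receptors for neuregulin from the nerve, were also called in neither (adjusted p = 0.758 and 0.792 in masseter, 0.141 and 0.719 in biceps femoris, by limma).

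Of 20 measured genes that are known to respond to loss of the nerve, mostly from mouse and rat, 7 rose and 0 fell in masseter, with a median change of 0.18. In biceps femoris 4 rose and 1 fell, with a median of -0.03, and 1 rose and 1 fell with the BioC block. Without 1 array, 5 to 8 rose in masseter. In biceps femoris 2 rose without day 1 replicate 3, and 2 fell without day 1 replicate 1 or 4. AMPD3 had the largest change of the list. Its log2 values in masseter were 8.73, 11.46, 10.79, 11.63 and 11.57 at day 5, against 5.11, 7.26, 5.56, 5.42 and 4.94 at day 1, and the arrays of both days did not overlap. AMPD3 rose 36.2-fold in masseter (adjusted p = 0.000683) and 7.42-fold in biceps femoris (0.0175 by limma). The biceps femoris call was lost without day 1 replicate 3 or day 5 replicate 4 (adjusted p = 0.0526 and 0.0506) and with the BioC block (0.0824).

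CDKN1A, the cell cycle inhibitor p21, rose 13.3-fold in masseter (adjusted p = 0.00657) and 3.94-fold in biceps femoris (0.00151). KCNN3, a calcium-activated potassium channel that appears in denervated muscle of rat, rose 3.90-fold in masseter (adjusted p = 0.00825) and 2.30-fold in biceps femoris (0.0198 by limma). Its biceps femoris call was lost without day 1 replicate 1 or 3 or day 5 replicate 3 (adjusted p = 0.0532 to 0.0608) and with the BioC block (0.279), and its other probe set was called in masseter only. GADD45A, a stress-response gene, rose 10.1-fold in masseter (adjusted p = 0.0131), and its change of 2.37 in biceps femoris was not called (adjusted p = 0.0526, but 0.00366 without day 1 replicate 1 and 0.0403 to 0.0498 under 4 other settings). UCHL1, a ubiquitin hydrolase of nerve that the nerve marker list holds too, rose 5.73-fold in biceps femoris (adjusted p = 0.00486, and 0.0794 with the BioC block) and 4.25-fold in masseter (0.0394). The masseter call of UCHL1 was lost when the animal was a block (0.0558) and in 8 of the 10 fits that left out 1 array, all except those without day 5 replicate 1 or 3 (up to 0.0894).

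NCAM1, an adhesion molecule that denervated fibres of mouse and rat are known to make, was lower in biceps femoris. Its log2 values there were 4.44, 4.90, 4.63 and 4.79 at day 5, against 5.23, 5.40, 5.59 and 5.76 at day 1, without overlap. NCAM1 fell 1.75-fold (change -0.81, SE 0.14, adjusted p = 0.0064 by limma), and its 3 other probe sets were also called lower in biceps femoris, at -0.65, -0.57 and -0.38. In masseter its change was -0.30 (adjusted p = 0.161), and 1 of its 3 other probe sets was called, at -0.28.

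**Figure D5:**
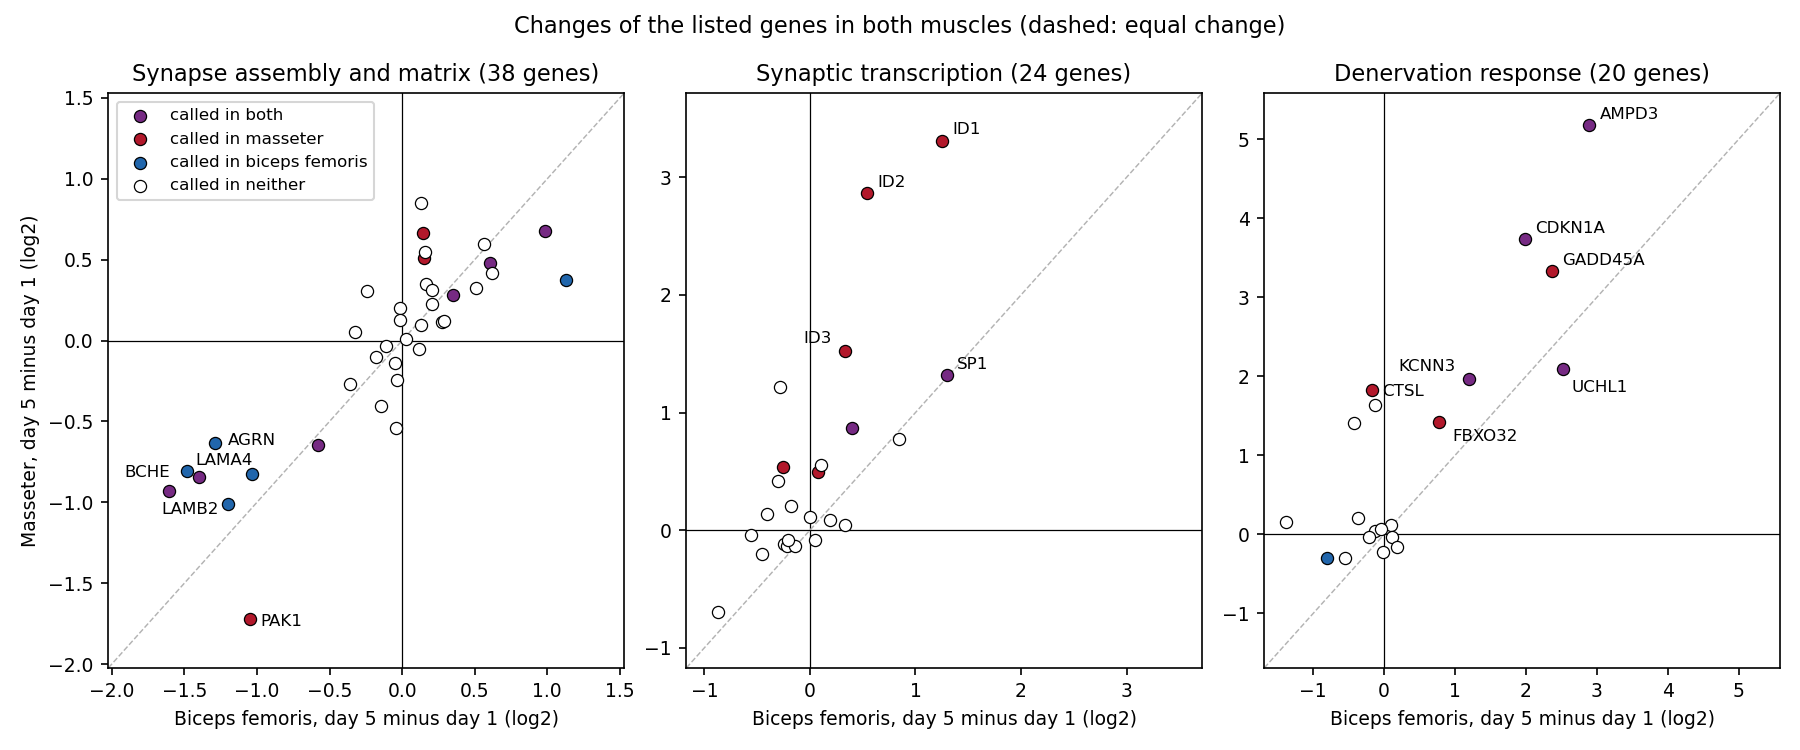
Day 5 minus day 1 change (log2) in masseter (vertical axis) and in biceps femoris (horizontal axis) for each measured gene of 3 lists, coloured by the muscle in which its adjusted p was under 0.05. Each panel has its own scale. AMPD3, ID1 and ID2 lie far above the line of equal change, and none of the genes was called for the difference between the muscles.

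Markers of the cell types around the synapse were read beside these genes. Of 12 measured Schwann cell and nerve markers, 1 rose and 1 fell in masseter (0 and 0 with the animal as a block), and 2 rose and 0 fell in biceps femoris (0 and 0 with the BioC block). Their mean lay between 5.83 and 6.19 at day 5 and between 5.81 and 5.96 at day 1 in masseter, and between 6.15 and 6.39 at day 5 and between 5.77 and 6.03 at day 1 in biceps femoris. The median change of the list was only 0.04 in masseter and 0.07 in biceps femoris, where the mean includes a change of 2.52 for UCHL1. The masseter calls were UCHL1, given above, and GFAP, an intermediate filament of glia, which fell 1.29-fold (adjusted p = 0.0338) and lost its call in 8 of the 10 fits that left out 1 array. MBP, a myelin protein, rose 1.88-fold in biceps femoris (adjusted p = 0.0236 by limma), and the call was lost in 4 of the 8 fits that left out 1 array, without day 1 replicate 1 or day 5 replicate 2, 3 or 4. Of 10 muscle fibre markers, 1 rose and 2 fell in masseter and 1 fell in biceps femoris. Their mean lay between 13.6 and 14.3 at day 5 and between 14.3 and 14.4 at day 1 in masseter, and between 13.6 and 13.7 at day 5 and between 13.9 and 14.0 at day 1 in biceps femoris, and all 10 stood above the median of every array. MB (myoglobin) fell 1.81-fold in masseter (adjusted p = 0.0129) and 5.88-fold in biceps femoris (0.0013 by limma, and 0.0565 with the BioC block). In masseter DES (desmin) rose 1.48-fold (adjusted p = 0.0185) and ENO3 (muscle enolase) fell 1.72-fold (0.0436), a call lost when the animal was a block (0.0592) and in 9 of the 10 fits that left out 1 array. Of 6 satellite cell markers, 1 fell in masseter (CALCR, the calcitonin receptor, 3.02-fold, adjusted p = 0.0115) and none was called in biceps femoris. Of 8 macrophage and leukocyte markers 1 rose in masseter and none in biceps femoris, and of 7 endothelial markers 1 rose in masseter (VWF, von Willebrand factor, 1.77-fold, adjusted p = 0.00352) and 2 fell in biceps femoris. The macrophage call (TYROBP, an adaptor of myeloid receptors, 1.72-fold, adjusted p = 0.0401) was lost when the animal was a block and in 8 of the 10 fits that left out 1 array, and both endothelial calls in biceps femoris (PECAM1 and CDH5) with the BioC block and in at least 5 of the 8 fits that left out 1 array. The part of any of these cell types in the changes above was not tested.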

How the data were processed

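Total RNA was hybridised to Affymetrix porcine arrays. The deposited log2 values had been made by the authors with RMA, per the submitters' processing notes, and were used as they stand (2.52 to 15.2). The authors' own table for biceps femoris, also deposited, gives the same log2 values with log2 changes, an adjusted p-value and a B score, per the file headers. The sorted values of 2 arrays of a muscle differed by at most 0.237, and those of arrays of different muscles by at least 0.541, so the muscles had been normalized apart. The number of arrays limits the precision.

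Control probe sets (124 of 24123) were left out. The pig symbol, the gene name or, failing both, the human homolog named 20700 probe sets for 10958 genes, while 91 had several names and 3208 none. A probe set named ZBTB4 whose homolog is CHRNB1 was not counted as CHRNB1. In limma 3.58.1 (R 4.3.3) the arrays of each muscle were fitted apart (lmFit, eBayes, two-sided, no covariate). These fits took the arrays of both days as independent, although the days share animals. The difference came from a joint fit of the 4 groups on 18 arrays, which also took the muscles as independent although they share animals. The fits were also run on simulated data with known changes. Those arrays were drawn as independent, without shared animals or a technical shift with the day, so the simulation does not cover either.

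Besides all member probe sets, the text names per list and muscle up to 4 called genes of smallest p, a set of synaptic genes whether called or not (AGRN, LRP4, COLQ, NCAM1, MYOG, HDAC4, ERBB2, ERBB3 and UTRN), and the 5 genes most like RUNX1 and CHRNA1. One gene of the nerve marker list is not reported here and was left out of its counts. The members, lists and tests were chosen with earlier results of these data known. Masseter arrays of 1 number share an animal per the sample descriptions, and their deviations from the group means correlated between -0.03 and 0.12. Among the masseter day 5 arrays, replicate 2 alone correlated best with the day 1 array of its own number. Alternatives were the replicate number as a block, the BioC sets as a block, array weights, a trended and robust eBayes, further quantile normalization, leaving out the 25% of probe sets with the lowest mean, all arrays in 1 fit, and leaving out each array.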

Additional observations from a re-analysis of the deposited data

Results flagged for a closer look

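In 3 of the 16 groups of values (4 probe sets in 4 groups), the highest or lowest array stood apart from the rest by Dixon's test at the 95% level, where chance gives about 1 in 20. CHRNA1 on biceps femoris day 1 replicate 1 was 8.21, with the nearest array of its group at 7.64. RUNX1 (Ssc.30055.1.A1_at) on masseter day 5 replicate 1 was 9.19, with the nearest at 10.16. MUSK on biceps femoris day 5 replicate 1 was 7.47, with the nearest at 6.17.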

How the results depend on the processing

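The RUNX1 rise in masseter kept its direction and its call under every alternative run, with changes of 3.51 to 3.84 and an adjusted p of at most 0.000443 without any 1 array, and of 3.57 to 3.75 and at most 0.00204 under the other settings. Member probe sets called in masseter were 1 throughout. In biceps femoris they were 1 as reported, 0 with the replicate block, 0 with the BioC block, 2 with all arrays in 1 fit, and 0 to 1 without 1 array. The replicate block took the CHRNA1 call away (adjusted p = 0.0585 by limma); the biceps femoris numbers do not name animals, same-numbered arrays correlated between -0.21 and 0.11, and 2 of 4 arrays correlated best with their own number. For the difference 0 member probe sets were called, 1 with array weights and 0 to 1 without 1 array. Over all probe sets, 3318 were called in masseter (2047 to 4628 without 1 array, with 2138 without day 1 replicate 4 and 2047 without day 1 replicate 5, and 2356 with the replicate block) and 4117 in biceps femoris (2951 to 4412, 3041 and, with the BioC block, 1306, of which 1128 were also called without it). With that block 20 of the 27 named genes called in biceps femoris lost their call. For the difference 48 probe sets were called as reported, 527 with array weights, 24 with a trended and robust eBayes, 17 with further quantile normalization, 0 with the replicate block, 49 with the BioC block (4 shared) and 9 to 266 without 1 array. No change that turned sign was called there. Without 1 array MUSK ranged between -0.077 and 0.40 for the difference and between -0.058 and 0.42 in biceps femoris, and RUNX1 Ssc.19080.1.A1_at between -0.10 and 0.0033 in biceps femoris. In masseter MBP ranged between -0.16 and 0.35, PECAM1 between -0.39 and 0.030, CDH5 between -0.49 and 0.016, ERBB2 between -0.11 and 0.27 and ERBB3 between -0.025 and 0.18. In biceps femoris ENO3 ranged between -0.071 and 0.018 and ERBB3 between -0.0058 and 0.44. With array weights MBP in masseter was 0.047 and ENO3 in biceps femoris 0.019, and with quantile normalization ENO3 was 0.010. The cause of these shifts was not tested. Leaving out the 25% of probe sets with the lowest mean also left out RUNX1 Ssc.19080.1.A1_at. The biceps femoris values of the authors' table were identical (largest difference 0), so that alternative gave no value of its own. The labels name no animals in biceps femoris, and 4 arrays a day give an exact p no lower than 0.0286.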

Other observations

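Genes near the members were read after the members' values were known. The probe set named ZBTB4, whose human homolog column gives CHRNB1, changed by 0.14 in masseter (adjusted p = 0.444) and by 0.40 in biceps femoris (adjusted p = 0.0652 by limma). CHRM1, a muscarinic acetylcholine receptor, changed by -0.27 in masseter (adjusted p = 0.152) and by -0.11 in biceps femoris (0.403). Of 5 probe sets of CHRM2, another muscarinic receptor, 1 was called, lower in biceps femoris at -0.39 (adjusted p = 0.0292 by limma), with values at or below the 26.5th percentile of every array.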
